A study of Mus musculus with 8 samples.

Results

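Iron and haem handling in the degenerating mouse retina was described through 10 genes, matched by symbol and chosen with earlier results of these data known. They included the haem oxygenase genes Hmox1 and Hmox2 and the plasma protein genes Cp, Lcn2 and Trf. The ferritin genes Fth1 and Ftl1 and the transport genes Tfrc, Slc11a2 and Slc40a1 completed the set. Each symbol matched 1 row of the deposited gene tables, so the set is 10 of 54532 genes, and all 10 passed the filter on low counts that left 17725 genes for testing. The samples were retinas of rd10 mice, which lose rods and then cones through a mutation in Pde6b, the gene of a subunit of the rod phosphodiesterase, and both groups carried it. The sIVs group, small intracellular vesicles by the series title, had 4 libraries numbered 2 to 5, and the PBS group, read here as phosphate-buffered saline, had 4 libraries numbered 1 to 4. The sources used here do not give the origin, dose or route of the vesicles, nor the mice's sex, their age or when retinas were taken. Whether a library stands for 1 mouse is not stated either, and the p-values therefore reflect library-to-library spread, which may be technical.

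Iron enters most cells bound to transferrin through the transferrin receptor, is moved out of endosomes by the divalent metal transporter, is stored in ferritin and leaves through ferroportin. Haem oxygenase opens the haem ring and frees its iron, and ceruloplasmin oxidises iron as it leaves the cell. In the retina, photoreceptors, pigment epithelium, Müller glia and microglia all make proteins of this system, and free iron is a source of oxidative damage to photoreceptors.

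Part of this system is set after transcription, through iron-responsive elements, hairpins in messenger RNA whose loop reads CAGUGN and which iron regulatory proteins bind when iron is scarce. The sites are printed here because they divide the 10 genes into those that carry such a hairpin and those for which a search found none. That property was read from sequence and not from the counts. The genes were chosen for iron and haem handling, so their matches are not independent of that choice. The motif searched was a C, any 5 bases, CAGTGN and any 5 bases, on the transcript strand only, with at least 4 of the 5 bases on each side of the loop able to pair (G with T included), in the untranslated regions of protein-coding transcripts of GENCODE M21 (GRCm38). The search found 8 matches in 5 of the 10 genes. Written 5′ to 3′ as DNA, with the 6 letters of the loop in capitals, they were:
Fth1, 5′ untranslated region, chr19:9982732-9982760, plus strand: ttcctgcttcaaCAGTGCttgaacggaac
Ftl1, 5′ untranslated region, chr7:45459779-45459807, minus strand: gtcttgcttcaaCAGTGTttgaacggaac
Slc40a1, 5′ untranslated region, chr1:45925465-45925493, minus strand: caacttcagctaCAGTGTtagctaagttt
Slc11a2, 3′ untranslated region, chr15:100395153-100395181, minus strand: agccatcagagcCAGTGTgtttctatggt
Tfrc, 3′ untranslated region, chr16:32631219-32631247, plus strand: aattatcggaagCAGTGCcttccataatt
Tfrc, 3′ untranslated region, chr16:32631598-32631626, plus strand: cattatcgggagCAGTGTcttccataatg
Tfrc, 3′ untranslated region, chr16:32631663-32631691, plus strand: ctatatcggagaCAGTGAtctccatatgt
Tfrc, 3′ untranslated region, chr16:32631710-32631738, plus strand: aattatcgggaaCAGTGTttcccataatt

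The paired bases numbered 5 of 5 in every site but that of Slc11a2, which had 4. The 2 ferritin sites share the stem ttcaa and ttgaa around their loops. Over all protein-coding genes with an untranslated region long enough to hold it, the same search matched 1% of 20597 genes in the 5′ region and 4.15% of 20995 genes in the 3′ region, so a match alone does not make a working element. A hairpin in the 5′ region, as in the ferritin and ferroportin genes, is known to hold back translation, which counts of messenger RNA do not measure, and the hairpins of Tfrc are known to protect its messenger RNA from decay. No match was found in the untranslated regions of Hmox1, Hmox2, Cp, Lcn2 or Trf.

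The sIVs libraries held between 15039385 and 16989737 counts, and the PBS libraries between 14640235 and 15948291. The summed CPM of 8 rod markers (CPM, counts divided by library sizes scaled with TMM, the trimmed mean of M values) stood between 7466 and 35400 in sIVs and between 31270 and 37430 in PBS, so rod transcripts were present in every library. The sIVs libraries 3 and 4 stood apart, with these sums at 0.234 and 0.22 times the PBS mean, against 1.04 and 0.835 times in sIVs libraries 2 and 5. In a bulk sample, fewer cells of a type and less RNA per cell cannot be told apart. With edgeR's quasi-likelihood test, 0% of the 17725 genes passed an adjusted p of 0.05 (Benjamini-Hochberg), and 1704 higher and 998 lower genes had an unadjusted p under 0.05, which is 9.61% and 5.63%. On the same counts DESeq2 called 571 genes and limma-voom with sample quality weights 4973.

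Across the 10 genes, 6 had higher means in sIVs with an unadjusted p under 0.05, against 9.61% of all genes tested. None had an adjusted p under 0.05, and none was lower by either rule. These 6 were Hmox1, Lcn2, Cp, Trf, Ftl1 and Fth1. The 4 others, Hmox2, Tfrc, Slc11a2 and Slc40a1, had log2 fold changes between -0.02 and 0.09. Only Hmox1 had all 4 sIVs libraries above all 4 PBS libraries, a pattern shown by 784 of 17725 genes (4.42%). The median log2 fold change of the 10 genes was 0.52, beside -0.0051 over all genes tested. Because the 10 genes were chosen with earlier results of these data known, these contrasts with all genes are not independent of that choice.

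**Figure D1:**
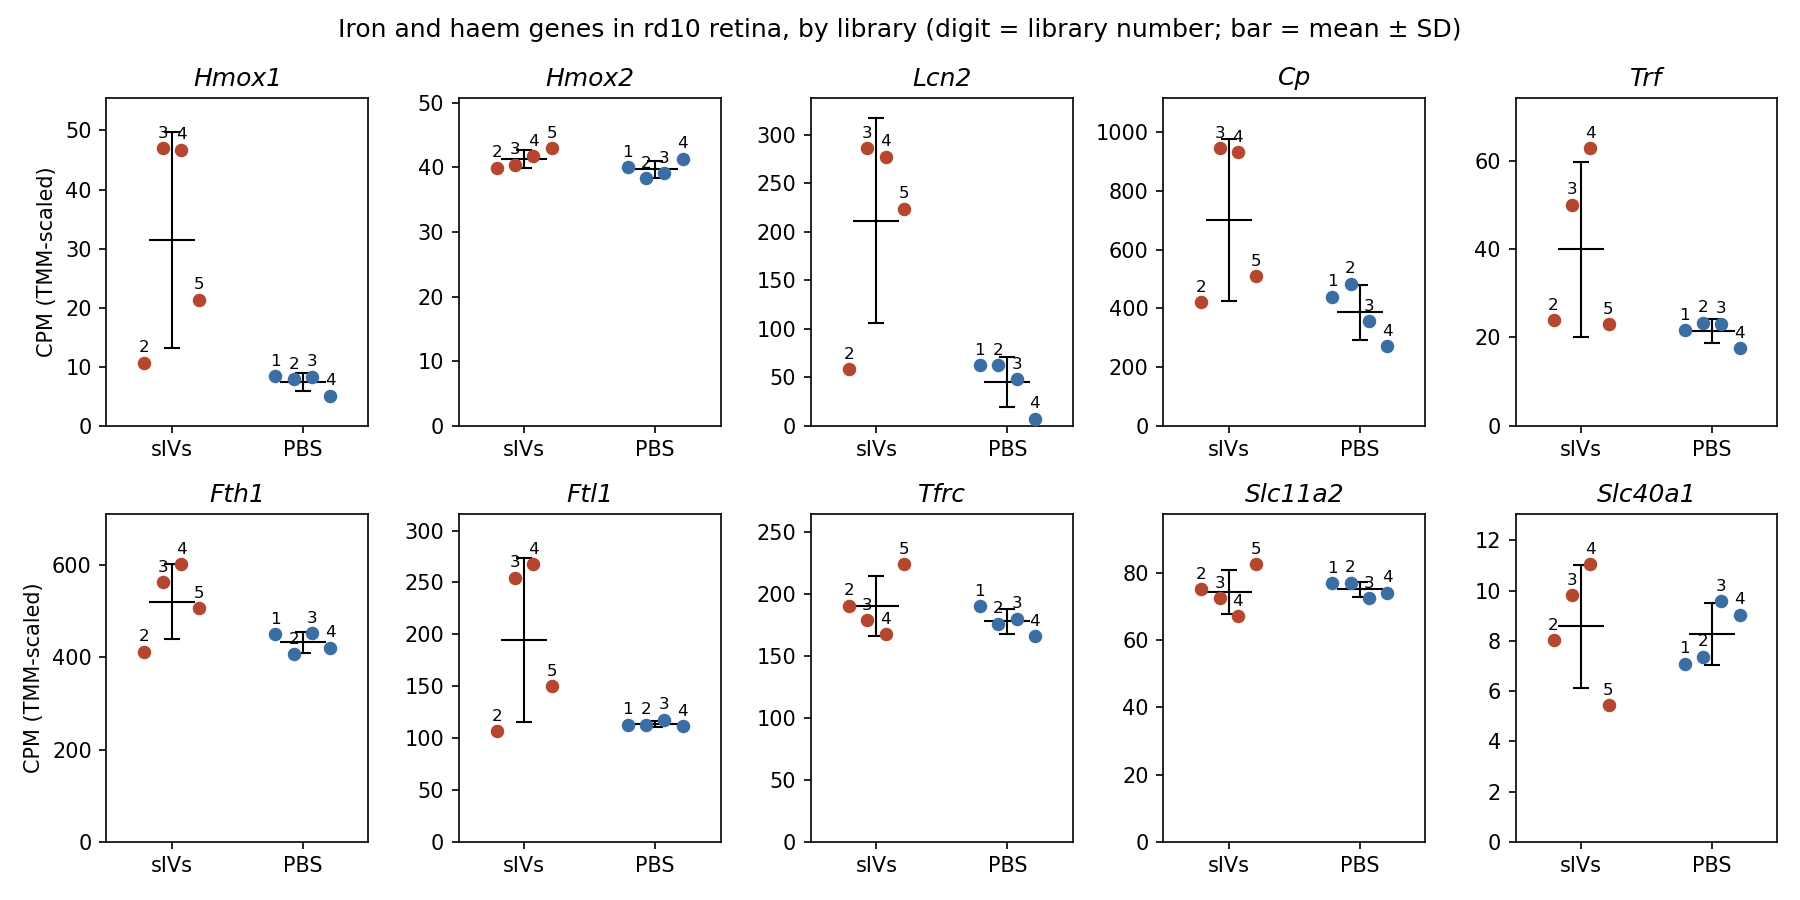
Each panel plots the CPM of 1 gene on a linear axis from 0, with the sIVs libraries on the left and the PBS libraries on the right. Points are libraries marked with their number, and the bars give the mean and SD of 4 libraries. The groups do not overlap for Hmox1 and overlap for the other 9 genes.

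Hmox1 encodes the inducible haem oxygenase (ENSMUSG00000005413, chromosome 8, 75093621 to 75100589). It stood at 10.6, 47.0, 46.7 and 21.4 CPM in sIVs libraries 2 to 5, against 8.37, 7.89, 8.26 and 5.05 CPM in PBS libraries 1 to 4. The lowest sIVs library was therefore above the highest PBS library, and sIVs libraries 3 and 4 were more than double library 5. The means were 31.4 ± 18.4 CPM in sIVs and 7.39 ± 1.57 CPM in PBS (SD, n = 4 each). The log2 fold change was 2.09 ± 0.43 (SE, edgeR adjusted p = 0.153), and Hmox1 ranked 80 of 17725 genes by p. When sIVs libraries 3 and 4 were dropped, a choice made with the values in view, it was 1.11 (edgeR adjusted p = 0.177) and both remaining sIVs libraries were above every PBS library, as were 11.1% of genes tested there. DESeq2 called Hmox1 on all 8 libraries (adjusted p = 0.00427), in a test that called 2.62% of genes as higher.

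Hmox2 encodes the constitutive haem oxygenase (ENSMUSG00000004070, chromosome 16, 4726361 to 4766742). It stood at 40.0, 40.4, 41.8 and 43.0 CPM in sIVs and at 40.0, 38.4, 39.1 and 41.3 CPM in PBS. The groups overlapped, with sIVs libraries 4 and 5 just above the PBS range and libraries 2 and 3 within it. Its log2 fold change was 0.06, with a 95% interval from -0.08 to 0.20 (edgeR adjusted p = 0.7). Per length, the FPKM ratio of Hmox1 to Hmox2 was 0.337, 1.47, 1.42 and 0.629 in sIVs, against 0.265, 0.26, 0.268 and 0.155 in PBS. The inducible transcript was thus below the constitutive one in every PBS library and in sIVs libraries 2 and 5, and above it in sIVs libraries 3 and 4.

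Lcn2 encodes lipocalin 2, a secreted protein that binds iron-loaded siderophores and is known as an acute-phase product of reactive glia and of neutrophils (ENSMUSG00000026822, chromosome 2, 32384633 to 32388252). It stood at 58.3, 286.5, 277.6 and 224.02 CPM in sIVs, against 62.1, 62.2, 47.8 and 7.26 CPM in PBS. The sIVs libraries 3, 4 and 5 were above every PBS library, while sIVs library 2 lay within the PBS range and PBS library 4 was far below the other 3. The log2 fold change was 2.24 ± 0.62 (SE, edgeR adjusted p = 0.185). Without PBS library 4 it was 1.88 (edgeR adjusted p = 0.385). Dropping sIVs libraries 3 and 4 instead gave 1.65 (edgeR adjusted p = 0.265). With all 8 libraries Lcn2 had the largest log2 fold change and the largest SE of the 10 genes, while without PBS library 4 or without sIVs library 5 the log2 fold change of Hmox1 was the larger (1.94 and 2.23, against 1.88 and 2.21 for Lcn2).

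Cp encodes ceruloplasmin, a copper-carrying ferroxidase (ENSMUSG00000003617, chromosome 3, 19957054 to 20009145). It stood at 420.8, 946.4, 932.4 and 510.2 CPM in sIVs, against 439.1, 483.1, 355.2 and 270.5 CPM in PBS. The sIVs libraries 3, 4 and 5 were above every PBS library, library 5 by a small margin, and library 2 lay within the PBS range. The means were 702.5 ± 276.1 CPM in sIVs and 387 ± 94.1 CPM in PBS (SD, n = 4 each). Its log2 fold change stood at 0.86 ± 0.28 (SE; edgeR adjusted p = 0.226). DESeq2 called it (adjusted p = 0.0494), and its log2 fold change without sIVs libraries 3 and 4 was 0.26 (edgeR adjusted p = 0.553).

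Trf encodes transferrin, the carrier of iron between cells (ENSMUSG00000032554, chromosome 9, 103204001 to 103230444). It stood at 23.8, 50.02, 62.9 and 22.9 CPM in sIVs, against 21.6, 23.3, 23.1 and 17.6 CPM in PBS. The sIVs libraries 3 and 4 were at least double every PBS library, library 2 was just above the highest PBS library, and library 5 lay within the PBS range. The log2 fold change was 0.90 ± 0.31 (SE, edgeR adjusted p = 0.242), 0.59 without sIVs library 4 (edgeR adjusted p = 0.501), and 0.13 when library 3 was dropped as well (edgeR adjusted p = 0.714). Unlike Lcn2, Trf was not above the PBS range in sIVs library 5, so Cp, Lcn2 and Trf did not share 1 pattern over the sIVs libraries.

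The ferritin genes encode the shell that stores iron, the heavy chain with ferroxidase activity and the light chain that helps the mineral form. Ftl1, the light chain gene (ENSMUSG00000050708, chromosome 7, 45457944 to 45459884), stood at 106.9, 254.4, 267.5 and 149.9 CPM in sIVs, against 113, 113.1, 117.6 and 111.4 CPM in PBS. The PBS libraries were close together, sIVs libraries 3, 4 and 5 were above all of them, and sIVs library 2 was below all of them. The log2 fold change of Ftl1 was 0.78 ± 0.25 (SE; edgeR adjusted p = 0.221). It was 0.17 when sIVs libraries 3 and 4 were dropped (edgeR adjusted p = 0.516).

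Fth1, the heavy chain gene (ENSMUSG00000024661, chromosome 19, 9982703 to 9985092), stood at 412.6, 562.8, 601.8 and 506.5 CPM in sIVs, against 449.8, 406.6, 452.9 and 420.6 CPM in PBS. It had the same order over libraries as Ftl1 within sIVs, with library 2 inside the PBS range, and a smaller log2 fold change, 0.27 ± 0.12 (SE; edgeR adjusted p = 0.316), which was 0.09 without sIVs libraries 3 and 4 (edgeR adjusted p = 0.727). Per length, the FPKM ratio of Ftl1 to Fth1 was 0.168, 0.292, 0.287 and 0.191 in sIVs, against 0.162, 0.18, 0.168 and 0.171 in PBS. The light chain thus made up a larger part of ferritin transcripts in sIVs libraries 3, 4 and 5 than in any PBS library, and not in library 2. Both ferritin genes have near-identical copies elsewhere in the genome, to which reads may have been assigned, which leaves these counts uncertain. The 14 other ferritin-like rows of the table held 0.944% of all ferritin counts.

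**Figure D2:**
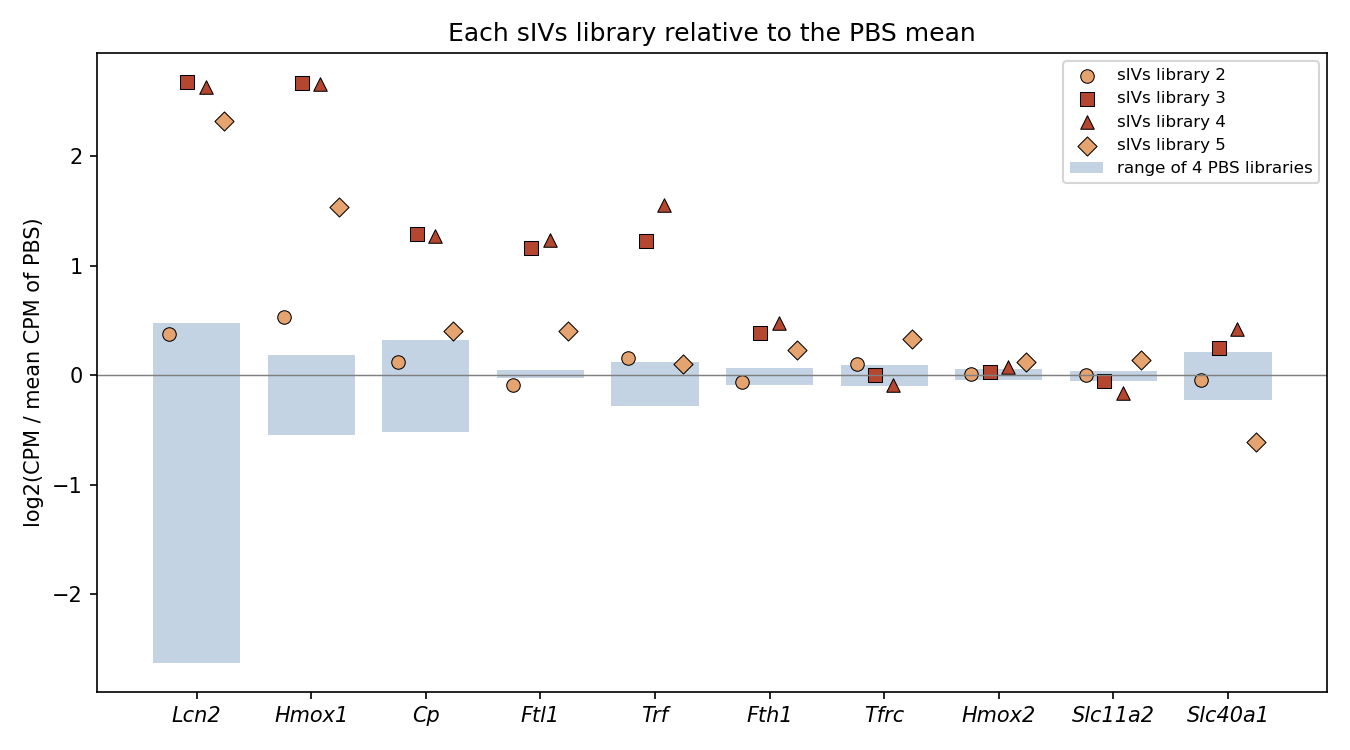
The log2 ratio of CPM to the PBS mean is plotted for each of the 4 sIVs libraries, and the blue band spans the 4 PBS libraries. For Lcn2, Hmox1, Cp, Ftl1 and Fth1 the points of sIVs libraries 3, 4 and 5 lie above the band, for Trf those of libraries 2, 3 and 4, and library 2 is at 0.53 for Hmox1, at 0.38 for Lcn2 and between -0.09 and 0.16 for the other 8 genes.

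The transport genes did not share this pattern. Tfrc, the receptor gene for transferrin (ENSMUSG00000022797, chromosome 16, 32608920 to 32632794), stood at 190.9, 178.9, 167.8 and 224.3 CPM in sIVs, against 190.4, 176.4, 180.3 and 166.1 CPM in PBS. Here sIVs library 5 was the highest of all 8, sIVs library 2 was level with the highest PBS library and sIVs libraries 3 and 4 lay within the PBS range. The log2 fold change was 0.09, with a 95% interval from -0.12 to 0.31 (edgeR adjusted p = 0.67), and it was -0.01 with limma-voom and sample quality weights.

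Slc11a2, the divalent metal transporter gene (ENSMUSG00000023030, chromosome 15, 100387898 to 100425072), stood at 75.1, 72.4, 67.2 and 82.6 CPM in sIVs, against 76.9, 77.03, 72.5 and 74.1 CPM in PBS. The PBS libraries lay inside the span of the sIVs libraries. Its log2 fold change was -0.02, with a 95% interval from -0.18 to 0.15 (edgeR adjusted p = 0.937), and it took the other sign, 0.06, when libraries were scaled by their totals. The hairpin printed above belongs to 1 of its annotated transcripts, and the gene counts pool all transcripts.

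Slc40a1, the ferroportin gene, the only known exporter of cellular iron (ENSMUSG00000025993, chromosome 1, 45908068 to 45926523), was the lowest of the 10 genes per length, at 0.951 ± 0.269 FPKM in sIVs and 0.915 ± 0.135 FPKM in PBS (SD, n = 4 each). It stood at 8.03, 9.82, 11.05 and 5.43 CPM in sIVs, against 7.08, 7.38, 9.58 and 9.04 CPM in PBS. In sIVs, libraries 3 and 4 were just above the PBS range and library 5 was below it. The log2 fold change was 0.06, with a 95% interval from -0.43 to 0.54 (edgeR adjusted p = 0.927). It was -0.30 without sIVs libraries 3 and 4 (edgeR adjusted p = 0.559). The FPKM ratio of Tfrc to Slc40a1, the receptor for uptake over the exporter, was 34.6, 26.5, 22.1 and 60.1 in sIVs, against 39.1, 34.8, 27.4 and 26.8 in PBS. Only sIVs library 5 was above the PBS range of that ratio, and sIVs libraries 3 and 4 were below it.

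Levels per length ordered the genes from Fth1 down to Slc40a1 in both groups. Fth1 averaged 599.9 ± 93.4 FPKM in sIVs and 497.6 ± 27 FPKM in PBS (SD, n = 4 each). Ftl1 averaged 144.8 ± 58.3 FPKM in sIVs and 84.6 ± 2.18 FPKM in PBS. The middle of the order differed between the groups: Lcn2 averaged 80.4 ± 40.1 FPKM in sIVs, at the level of Cp there (73.2 ± 28.6 FPKM), and 17.1 ± 9.89 FPKM in PBS, at the level of Hmox2 there (17.8 ± 0.535 FPKM). Hmox1 averaged 17.9 ± 10.4 FPKM in sIVs, at the level of Hmox2 there (18.6 ± 0.6 FPKM), and 4.21 ± 0.907 FPKM in PBS, below Trf (6.42 ± 0.814 FPKM) and above Slc40a1. Each of these 3 pairs differed by less than the SD of its more variable gene. By group, the 5 genes with a hairpin match included 2 of the 6 with an unadjusted p under 0.05 and higher means in sIVs, the ferritins, and 3 of the 4 others.

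The number of calls depended on sIVs library 2. Without it, edgeR called 5 of the 10 genes, all higher: Hmox1 (log2 fold change 2.37, adjusted p = 0.00561), Ftl1 (0.98, adjusted p = 0.0145), Lcn2 (2.55, adjusted p = 0.0246), Cp (1.04, adjusted p = 0.0381) and Fth1 (0.36, adjusted p = 0.0427), while Trf had an adjusted p of 0.0522. In that fit 870 of 17999 genes (4.83%) were called higher. All 3 remaining sIVs libraries were then above all 4 PBS libraries for the same 5 genes, as for 11.3% of genes tested. Left out singly, no other library gave an edgeR call among the 10 genes. Of all pairs of libraries, sIVs library 2 and PBS library 1 differed least over all genes by chi-square per gene.

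The rest of the pathway was read from 60 further genes in 6 lists, of which 54 were tested. edgeR called 0 of them after adjustment (smallest adjusted p = 0.205), DESeq2 also called 0, and limma-voom with sample quality weights called 11 higher and 6 lower, where it called 14% of all genes in each direction. At an unadjusted p under 0.05, 7 of the 54 were higher and 0 lower, against 9.61% and 5.63% of all genes. Their median log2 fold change was 0.03.

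Genes of iron uptake and membrane transport had the highest list median, 0.23 over 11 tested genes, with 4 higher at an unadjusted p under 0.05, against 9.61% of all genes. Steap4, a metalloreductase gene, had the smallest p of that list. It stood at 8.97, 36.1, 33.4 and 13.7 CPM in sIVs, against 8.24, 11.6, 8.89 and 2.42 CPM in PBS. The sIVs libraries 3, 4 and 5 were above every PBS library and library 2 was not (log2 fold change 1.56 ± 0.51 SE, edgeR adjusted p = 0.226). Tfr2, which encodes a second transferrin receptor, stood at 6.09, 5.78, 5.36 and 5.67 CPM in sIVs, against 4.57, 4.87, 4.37 and 4.2 CPM in PBS. Its groups did not overlap and sIVs library 2 was the highest, unlike the order seen for Hmox1 (log2 fold change 0.34 ± 0.13 SE, edgeR adjusted p = 0.281). Steap3, the endosomal ferrireductase gene, and Slc39a14, a metal importer gene, stood at log2 fold changes of 0.75 (edgeR adjusted p = 0.26) and 0.30 (edgeR adjusted p = 0.264). Without sIVs library 2, edgeR called Steap4, Steap3 and Slc39a14 as higher (adjusted p = 0.0432, 0.0354 and 0.0252), in the fit that called 4.83% of all genes as higher.

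The haem lists were centred near 0. The 8 genes of haem synthesis had a median log2 fold change of 0.01. Among 12 tested genes of haem transport and breakdown the median was 0.06, and Blvra and Blvrb, which encode the reductases acting after haem oxygenase, stood at log2 fold changes of -0.12 (edgeR adjusted p = 0.55) and 0.13 (edgeR adjusted p = 0.775). Hebp1, a haem-binding protein gene, had the smallest p of that list (log2 fold change 0.79 ± 0.28 SE, edgeR adjusted p = 0.255). Hp, the haptoglobin gene, chosen after its values were seen, missed the filter on low counts, with 3, 15, 16 and 20 counts in sIVs, against 4, 2, 2 and 4 counts in PBS. No test is given for it, since it can pass the filter only through the group where it is high.

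Iron sensing genes had a list median of -0.12 over 9 tested genes. Epas1, a hypoxia-inducible factor gene whose messenger RNA is itself known to carry an iron-responsive element, had the smallest p (edgeR adjusted p = 0.366). It averaged 172.8 ± 31.2 CPM in sIVs and 204.5 ± 7.35 CPM in PBS (SD, n = 4 each). The sIVs libraries 2 to 5 stood at 202, 142.3, 149.5 and 197.4 CPM, against 193.7 to 210.2 CPM in PBS. Only sIVs libraries 3 and 4 were thus below the PBS range. Aco1 and Ireb2, which encode the iron regulatory proteins, stood at log2 fold changes of 0.13 (edgeR adjusted p = 0.433) and 0.01 (edgeR adjusted p = 0.985). The 3 iron chaperone and ferritinophagy genes had a median of -0.05, and Pcbp2, of smallest p, stood at 421.6, 262.6, 261.6 and 417.5 CPM in sIVs, against 398.8 to 419.8 CPM in PBS (edgeR adjusted p = 0.479). Among 11 mitochondrial iron and iron-sulfur cluster genes the median was 0.05. Iscu, the gene of the scaffold on which these clusters are built, stood at 33.7, 38.5, 40.4 and 35.02 CPM in sIVs, against 32.4, 27.9, 31.9 and 29 CPM in PBS. Its groups did not overlap (log2 fold change 0.29 ± 0.09 SE, edgeR adjusted p = 0.205), so that of the 54 genes Tfr2 and Iscu had all sIVs libraries above all PBS libraries and none had all below, against 4.42% and 3.36% of all genes.

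**Figure D3:**
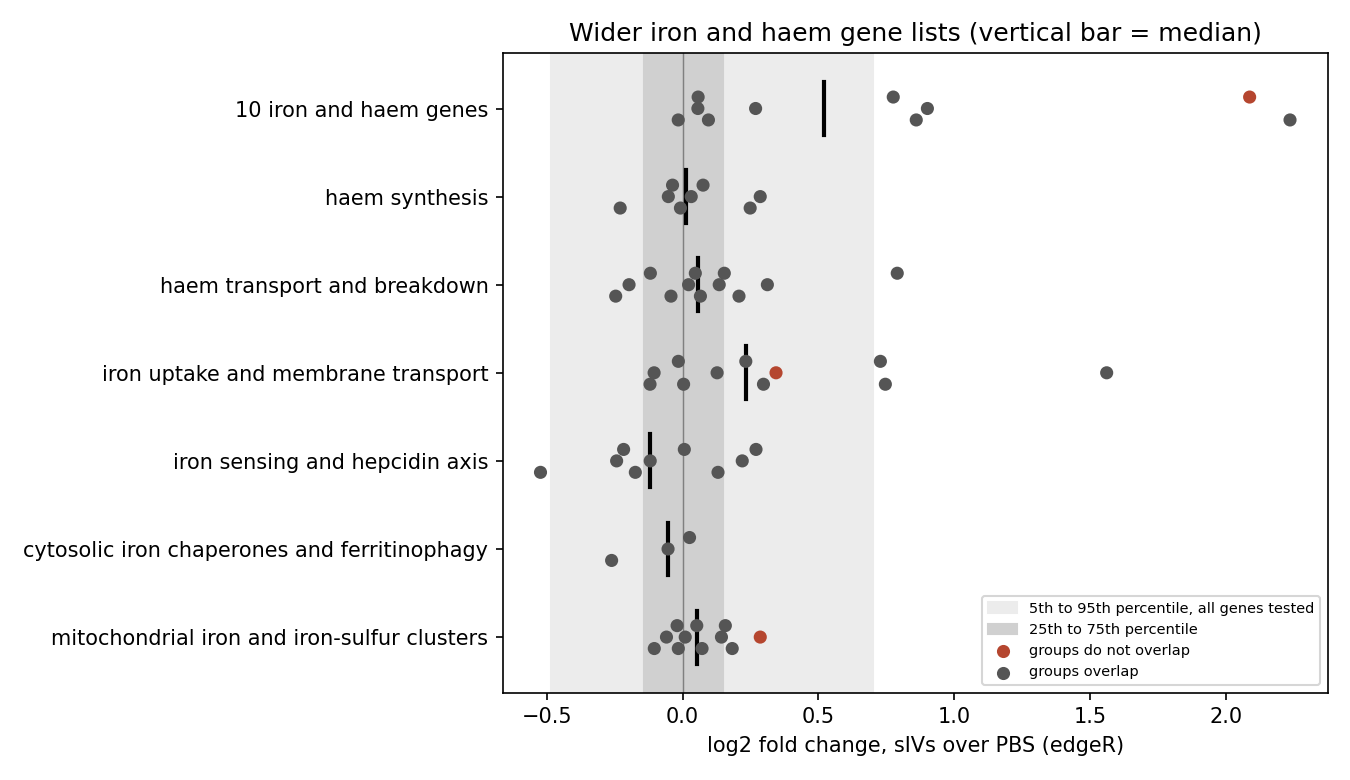
Each point is a tested gene at its edgeR log2 fold change of sIVs over PBS, by list, with the list median as a vertical bar and the spread of all 17725 genes as grey bands. The 10 iron and haem genes have a median of 0.52 and the 6 further lists have medians from -0.12 to 0.23.

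Several cell type marker sums moved with these genes over the sIVs libraries. Summed CPM of 7 reactive glia markers were 925.5, 2098, 2231 and 1292 in sIVs, against 866.6, 847.8, 639.1 and 436.6 in PBS, with 6 of 7 markers higher in the mean. As for Hmox1, Lcn2 and Cp, sIVs libraries 3 and 4 were the highest, library 5 came next, library 2 was the lowest of the sIVs group and PBS library 4 was the lowest of all. Microglia and macrophage markers summed to 203.7, 423.1, 523.4 and 161.2 CPM in sIVs, against 264.2, 215.4, 260.6 and 160.4 CPM in PBS, with 8 of 9 markers higher in the mean. The sums of sIVs libraries 2 and 5 lay within the PBS range. In sIVs library 5, Lcn2 stood at 4.99 times and Hmox1 at 2.89 times the PBS mean. Which cells made these transcripts was not tested.

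Monocyte and neutrophil markers, relevant to Lcn2, summed to 0.803, 10.25, 9.94 and 4.00 CPM in sIVs, against 0.386, 0.449, 0.625 and 0.427 CPM in PBS. All 8 of these markers missed the filter on low counts and had a higher mean in sIVs. Camp, Mpo and Ngp stood near 0 in both groups (means of 0.235, 0.077 and 0.0766 CPM in sIVs, against 0.200, 0.0494 and 0.0685 CPM in PBS). Most of the sum was Ccr2 and Ly6c2 in sIVs libraries 3 and 4 and S100a8 and S100a9 in library 5. The defining neutrophil marker Ly6g stood at 0.067 CPM in sIVs library 2 and at 0 in every other library. Oligodendrocyte markers, relevant to Trf, summed to 76.9, 286.5, 120.6 and 81.7 CPM in sIVs, against 73.8 to 89.1 CPM in PBS. In sIVs library 3, Mbp, Mag, Mog, Mobp and Cnp were each above the PBS range. In sIVs library 4, Cnp (73.9 CPM, against 34.2 to 39.96 CPM in PBS) and Mag (0.939 CPM, against 0.285 to 0.451 CPM in PBS) were above it and Mbp, Mog and Mobp were not, while Trf was higher in library 4 than in library 3.

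Erythroid markers, a source of haem, summed to 41.5, 27, 23.4 and 48.1 CPM in sIVs, against 38.2 to 54.5 CPM in PBS, and all 6 were lower in the mean in sIVs. Endothelial markers summed to 388.6, 700.5, 708.4 and 354.9 CPM in sIVs, against 399.8 to 447.1 CPM in PBS, all 6 being higher in the mean. Kdr made up most of these sums, at 225.8, 513.6, 505.6 and 190.6 CPM in sIVs, against 239.6 to 278.4 CPM in PBS. Its log2 fold change was 0.44, and those of the other endothelial markers ran from 0.09 (Flt1) to 0.24 (Cldn5). The 6 Müller glia markers summed to 2167 to 3700 CPM in sIVs, against 3609 to 4771 CPM in PBS. Of the Müller glia markers 4 of 6 were higher in the mean in sIVs, and Glul, the glutamine synthetase gene, averaged 1180 CPM in sIVs and 2297 CPM in PBS. Pigment epithelium and melanocyte markers summed to 139.8, 85.4, 137.6 and 49.5 CPM in sIVs, against 63.8 to 296.9 CPM in PBS. The parts that rods, glia, myeloid cells, endothelium and oligodendrocytes played in the values of the 10 genes were not tested.

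**Figure D4:**
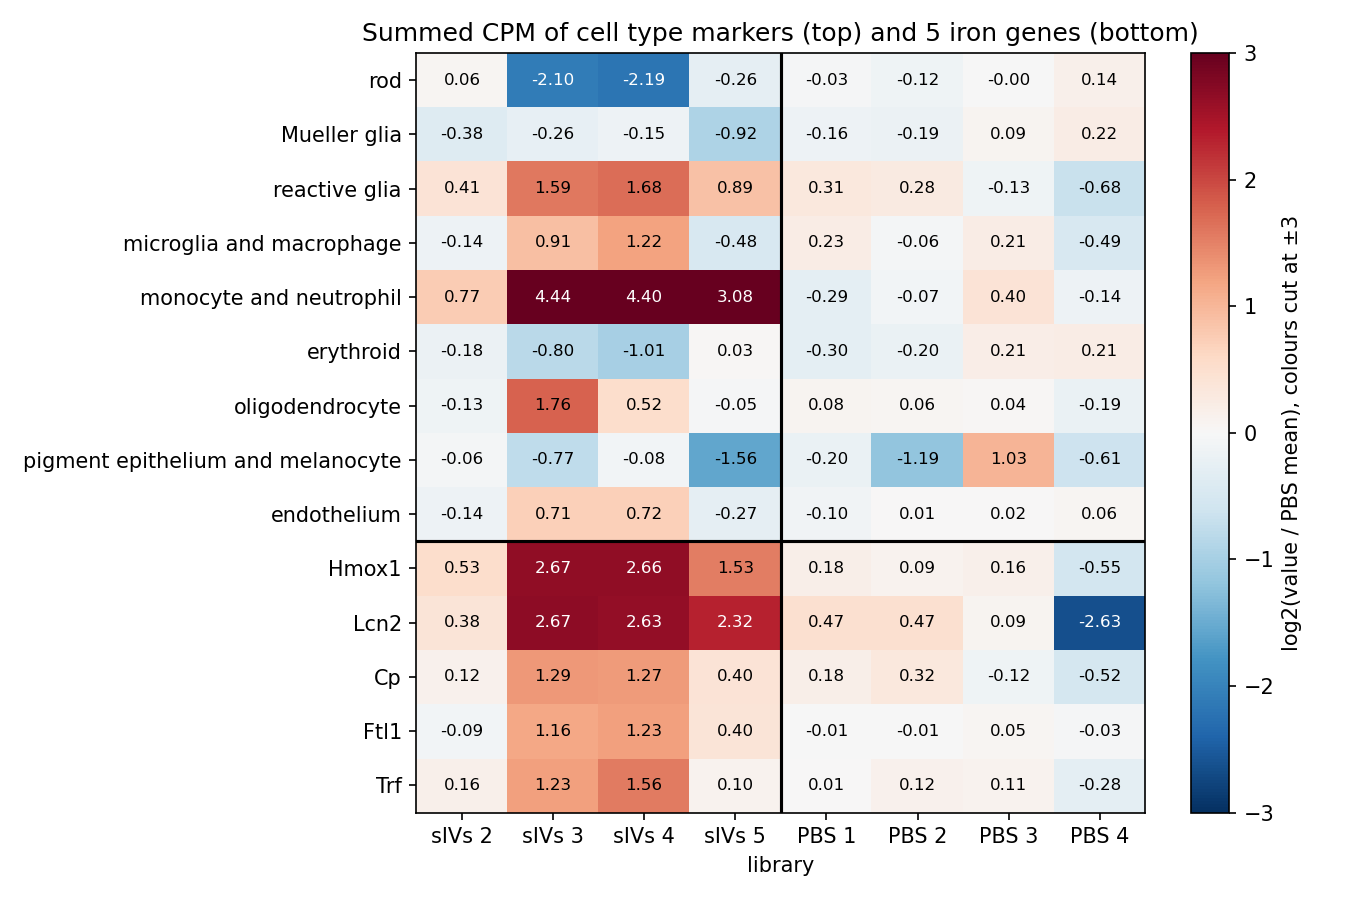
Cells give the log2 ratio of each library to the PBS mean, for summed CPM of 9 marker lists above the line and for Hmox1, Lcn2, Cp, Ftl1 and Trf below it, with sIVs libraries left of the PBS libraries. In sIVs libraries 3 and 4 the rod row is blue (0.234 and 0.22 times the PBS mean) and the reactive glia row red (3.01 and 3.2 times), as are the rows of all 5 genes.

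The genes most like each of these in profile were found by the root-mean-square distance between log2 CPM relative to the PBS mean over 8 libraries, among protein-coding genes of at least 1 CPM on average. Among the 3 nearest to Hmox1 were Cd44 and Nlrc5, at distances of 0.165 and 0.242. Cd44, a hyaluronan receptor gene, is also a member of the reactive glia list. Nearest to Ftl1 were Plekhg6, Rhoc and Tsc22d4 (0.0716, 0.0725 and 0.1), and nearest to Cp were Pole, Plin3 and Abcc3 (0.112, 0.112 and 0.119). Trf was nearest to Ctsz, Plek and Plscr2 (0.111, 0.115 and 0.12). Lcn2 had no near neighbour by comparison, since its closest genes, S100a6, Fgr and Timp1, lay at 0.58, 0.677 and 0.684.

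Fth1 was nearest to Mapk3, Gpc1 and Gstm5 (0.039, 0.0483 and 0.0498). Tfrc was nearest to Nup98, Hmg20b and Rbm22 (0.0373, 0.0399 and 0.0407), and Hmox2 to Psmc2, Rps6 and Cnot11 (0.0216, 0.0253 and 0.0267). Slc40a1 was nearest to Bves, Shc3 and Copz2 (0.0856, 0.0937 and 0.096), and Slc11a2 to Dennd4b, Casp2 and Sympk (0.0154, 0.0278 and 0.0305).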

How the data were processed

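Per the labels' protocols, retinal RNA was extracted with TRIzol, selected by its poly(A) tail, made into strand-marked libraries and read in pairs by Illumina sequencing. The build, mm10, is from the submitters' processing notes. The sources used here name neither the aligner and counter nor the annotation and strand setting. The authors deposited whole-number counts and an FPKM table for 54532 genes in 8 libraries. Gene coordinates are the deposited ones, and those of 9 of the 10 genes are identical in GENCODE M21 (GRCm38), Fth1 being the exception. Hairpin sites come from the M21 transcripts and annotation.

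The test on counts was that of edgeR 4.0.16 (R 4.3.3): filterByExpr by group, TMM scaling, glmQLFit and glmQLFTest with group as the only term, Benjamini-Hochberg adjustment over 17725 genes and a threshold of 0.05. CPM use TMM-scaled library sizes. SEs derive from the F statistic. The test was checked on simulated counts, with a common dispersion for all genes and the same change in every sIVs library. A split within the sIVs group was not simulated. The biological coefficient of variation was 17.1%. FPKM are the authors' values, used for levels per length. Alternatives used DESeq2 1.42.0, limma 3.58.1, other scalings and filters, limma on FPKM with a pseudocount of 0.1 or 1, omission of each library, and blocks by replicate number. Every pair of libraries differed by more than sampling noise, and each library counts as 1 sample. The closest pair lay across the groups, sIVs library 2 and PBS library 1 (chi-square per gene 3.65). The closest pair within a group, PBS libraries 1 and 2, stood at 3.84, and sIVs library 2 stood at 13.9 to 74.6 from the other sIVs libraries.

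The 10 genes, the further lists and the markers were chosen with earlier results of these data known. Named genes were all 10, and from each further list those whose groups did not overlap and the one of smallest p, plus 3 nearest genes by profile; Steap3, Slc39a14, Blvra, Blvrb, Aco1, Ireb2 and Hp were named beyond that rule after their values were seen. Hjv was matched as Hfe2 through RefSeq synonyms. Some genes that the rule names are not reported here.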

Additional observations from a re-analysis of the deposited data

Results flagged for a closer look

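Hmox1 in PBS library 4 stood at 5.05 CPM, below the other 3 PBS libraries, which stood between 7.89 and 8.37 CPM. Its gap to the nearest library was 0.855 of the range of the PBS group, above Dixon's 95% critical value for 4 samples. It was 1 of 20 groups examined in this way, and chance marks about that many. Without PBS library 4 the log2 fold change of Hmox1 was 1.94 (edgeR adjusted p = 0.385).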

How the results depend on the processing

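Genes called over the whole table numbered 0 with edgeR, 571 with DESeq2, 4973 with limma-voom and sample quality weights, 152 without a filter on low counts, 3 without sIVs libraries 3 and 4, and 0 to 1331 with single libraries left out. Of the 10 genes, 0 were called in the chosen fit, and 0 to 5 with single libraries left out. The 5 were called without sIVs library 2, where 4.83% of all genes were called higher. DESeq2 called 2 as higher (Hmox1 and Cp), against 2.62% of all genes. With limma-voom and sample quality weights 6 were called higher, against 14% of all genes. Without a filter on low counts 1 was called (Hmox1, where edgeR called 145 genes or 0.43% as higher). Of the further 60 genes, 0 were called with edgeR and 17 with limma-voom and sample quality weights. The latter called 14% of all genes in each direction. With single libraries left out, 0 to 4 were called. The 4, without sIVs library 2, included Hp, which missed the filter when all libraries were used. Hp passed it there only through the group where it is high, so its call is not read as a result. Genes with all sIVs libraries above all PBS libraries numbered 1 of 10, against 4.42% of all genes. With single libraries left out they numbered 1 to 5. The 5 were without sIVs library 2, where 11.3% of all genes had this pattern. The sample weights of limma-voom were 0.258, 1.84, 1.22 and 0.245 in sIVs libraries 2 to 5, against 0.906 to 2.71 in PBS. In that fit, sIVs libraries 2 and 5 thus counted least. The cause of the differences between settings was not tested. Hmox1, Lcn2, Cp, Trf, Ftl1 and Fth1 kept a positive log2 fold change under all 21 alternatives. The values that changed sign were all near 0 or not called: Tfrc with limma-voom and sample quality weights (-0.013), Slc11a2 with library totals (0.056) and without sIVs libraries 3 and 4 (0.067), and Slc40a1 without sIVs libraries 3 and 4 (-0.30). With single libraries left out, Slc11a2 ran from -0.072 to 0.0285 and Slc40a1 from -0.092 to 0.223. Whether the replicate numbers pair the libraries is not stated. Deviations of same-numbered libraries correlated between -0.0585 and 0.0681 by title number and between -0.0707 and 0.119 by biosample number. By title number, those of different-numbered libraries ran from -0.159 to 0.119, so these few values cannot decide pairing. A replicate block by either numbering called 0 genes, and gave Hmox1 log2 fold changes of 2.08 and 1.91. With 4 libraries a group, the SEs of the 10 log2 fold changes ran from 0.06 for Hmox2 to 0.62 for Lcn2.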
